A study of Mus musculus with 5 samples.

Results

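The axon guidance genes described here are the 72 mouse protein-coding genes that encode semaphorins, plexins, neuropilins, ephrins, Eph receptors, slits, Robo receptors, netrins, UNC5 receptors, DCC and neogenin. They were picked by symbol from the 21644 protein-coding gene symbols of the GENCODE M21 basic annotation on mm10. The symbol had to be Sema, Plxn, Epha, Ephb, Efna, Efnb, Slit, Robo, Ntn or Unc5 with its letter or number, or Nrp1, Nrp2, Dcc or Neo1. The genes fall into 37 ligand genes and 35 receptor genes. The rule uses symbols and no peak.

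The peaks come from chromatin immunoprecipitation sequencing (ChIP-seq) of the zinc finger factor ZFP24, also named ZFP191 (human ZNF24), in oligodendrocyte progenitor cells (OPC) and oligodendrocytes (OLG), the glia that make myelin in the brain and spinal cord. Cells of C57BL/6 mice were taken from the brain at postnatal day 7 and selected by immunopanning. For the OLG, OPC had been cultured for 5 days in 40 ng/ml triiodothyronine, a thyroid hormone, after removal of the growth factor PDGF. In all, 5 libraries were made: wild-type OPC, Zfp191-null OPC, wild-type OLG, Zfp191-null OLG and an input pooled from wild-type and null cells of both kinds. There was 1 library per group, and the labels do not say how many animals went into each. The values used here are 2 lists of peak positions, 4643 peaks in OPC and 1752 in OLG. For each cell type, the labels of the wild-type and the null sample name the same list, which was taken as the wild-type list. The lists hold no score and no read count, so depth is unknown and the cell types could not be checked against marker genes. Where a gene has a peak in 1 list alone, a difference in binding cannot be told apart from a difference in depth or calling threshold. No signal from the null and input libraries was analysed here, which leaves the level in these controls unmeasured.

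Guidance ligands are secreted or membrane-bound cues that steer growing axons and migrating cells by attraction or repulsion. Semaphorins act through plexins, with neuropilins as co-receptors for the class 3 semaphorins. Ephrins act through Eph receptor kinases, slits through Robo receptors, and netrins through DCC, neogenin and UNC5 receptors. Several of these cues, among them netrin-1 and class 3 semaphorins, are also known to guide migrating OPC and to shape oligodendrocyte processes.

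The sequences under 10 peaks illustrate these genes and are given here from the mm10 assembly, 5′ to 3′ on the strand of the gene, as whole deposited peak intervals. The first lies in an intron of Epha7, 1966 bp downstream of a start (chr4:28815106-28815326, plus strand), and its capitals mark the 141 bases that the OPC peak and the OLG peak share.
Epha7, OLG peak: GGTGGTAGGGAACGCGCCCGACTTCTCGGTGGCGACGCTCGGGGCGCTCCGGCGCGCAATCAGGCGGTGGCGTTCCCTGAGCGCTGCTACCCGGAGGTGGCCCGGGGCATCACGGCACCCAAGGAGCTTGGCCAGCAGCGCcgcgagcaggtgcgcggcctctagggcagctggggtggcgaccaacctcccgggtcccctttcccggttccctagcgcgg
Of the 4 UNC5 receptor genes, 3 had an OLG peak and 0 an OPC peak within 10 kb, beside 6.48% and 12.8% of all genes. With so few genes, the OPC count of 0 is near the share of all genes. The OLG peaks of these genes hold neither of the motifs marked below. They lie at chr3:141464888-141465108 (Unc5c, plus strand), chr10:60830768-60830988 (Unc5b, minus strand) and chr8:29218647-29218867 (Unc5d, minus strand).
Unc5c, OLG peak: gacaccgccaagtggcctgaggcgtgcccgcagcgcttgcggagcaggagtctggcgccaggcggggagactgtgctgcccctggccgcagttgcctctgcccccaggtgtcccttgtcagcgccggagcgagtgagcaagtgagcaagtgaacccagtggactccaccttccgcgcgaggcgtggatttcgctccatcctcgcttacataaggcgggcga
Unc5b, OLG peak: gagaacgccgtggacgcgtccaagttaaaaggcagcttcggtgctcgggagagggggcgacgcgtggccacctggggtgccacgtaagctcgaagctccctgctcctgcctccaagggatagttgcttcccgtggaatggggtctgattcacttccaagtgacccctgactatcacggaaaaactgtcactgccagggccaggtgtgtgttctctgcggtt
Unc5d, OLG peak: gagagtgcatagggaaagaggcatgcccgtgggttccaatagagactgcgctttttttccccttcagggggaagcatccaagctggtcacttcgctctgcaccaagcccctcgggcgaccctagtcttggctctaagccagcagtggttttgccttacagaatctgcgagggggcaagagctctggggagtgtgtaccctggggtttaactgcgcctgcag
Netrin-1 (Ntn1) had peaks near its starts and deep inside the gene, and an OLG peak from each place is shown. The OLG peak near a start (chr11:68386228-68386448, minus strand) holds the GC box GGGCGG at 2 places, in capitals. That start is an internal one, and the peak lies 14485 bp from the 5′ end of the gene record. The OPC peaks of Ntn1 near starts hold no GC box in the 200 bp around their centres.
Ntn1, OLG peak near the start: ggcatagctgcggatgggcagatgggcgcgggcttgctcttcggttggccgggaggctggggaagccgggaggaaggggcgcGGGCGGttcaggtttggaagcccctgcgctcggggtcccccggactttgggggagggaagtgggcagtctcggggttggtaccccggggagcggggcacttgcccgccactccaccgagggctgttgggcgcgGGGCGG
The intronic peak of Ntn1 (chr11:68354567-68354787, minus strand) and the intronic peaks of Slit3 (chr11:35587675-35587895, plus strand), Slit1 (chr19:41700969-41701177, minus strand) and Plxnc1 (chr10:94832859-94833079, minus strand) each hold a tract of tandem TCAT, in capitals, a 4-base repeat whose tracts were found in 12.2% of all OPC peaks and 5.71% of all OLG peaks.
Ntn1, OLG peak in the intron: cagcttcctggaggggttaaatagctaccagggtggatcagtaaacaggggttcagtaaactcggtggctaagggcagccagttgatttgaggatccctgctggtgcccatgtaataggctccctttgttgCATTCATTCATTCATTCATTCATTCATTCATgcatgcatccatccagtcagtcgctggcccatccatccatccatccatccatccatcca
Slit3, OLG peak in an intron: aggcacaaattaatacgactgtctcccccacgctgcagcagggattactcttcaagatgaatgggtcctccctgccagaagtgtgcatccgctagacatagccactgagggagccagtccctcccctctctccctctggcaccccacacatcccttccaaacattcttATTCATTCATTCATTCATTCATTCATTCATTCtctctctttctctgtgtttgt
Slit1, OPC peak in an intron: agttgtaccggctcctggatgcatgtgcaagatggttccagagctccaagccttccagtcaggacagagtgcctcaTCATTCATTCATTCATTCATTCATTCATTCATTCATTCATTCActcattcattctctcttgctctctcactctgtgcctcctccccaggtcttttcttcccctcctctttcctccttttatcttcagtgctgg
Plxnc1, OLG peak in an intron: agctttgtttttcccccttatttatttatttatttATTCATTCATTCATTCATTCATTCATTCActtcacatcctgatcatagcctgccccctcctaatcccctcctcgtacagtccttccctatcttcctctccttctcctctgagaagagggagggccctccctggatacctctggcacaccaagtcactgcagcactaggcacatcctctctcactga
The last is the OLG peak nearest to Epha2, upstream of the gene (chr4:141280966-141281186, plus strand), where 6 short tracts of at least 12 bases follow each other.
Epha2, OLG peak upstream: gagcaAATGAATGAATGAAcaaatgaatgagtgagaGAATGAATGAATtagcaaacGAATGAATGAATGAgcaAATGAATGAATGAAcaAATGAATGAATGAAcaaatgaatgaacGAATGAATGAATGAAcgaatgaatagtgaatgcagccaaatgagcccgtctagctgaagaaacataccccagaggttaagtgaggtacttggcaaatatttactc

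A gene was counted as having a peak when the centre of a peak lay within 10 kb of any of its protein-coding transcript starts. In OPC this held for 14 of the 72 guidance genes, 19.4% (exact Clopper-Pearson 95% interval 11.1 to 30.5), beside 12.8% of all protein-coding genes, a share inside that interval. In OLG it also held for 14 of 72, 19.4% (11.1 to 30.5), beside 6.48% of all genes, a share below the interval. A peak in both lists was found for 6 genes, 8.33% (3.12 to 17.3), beside 2.12% of all genes, and a peak in either list for 22 genes, 30.6% (20.2 to 42.5), beside 17.1%. Within 1 kb of a start, 9 genes had an OPC peak, 12.5% (5.88 to 22.4) beside 8.22% of all genes, and 11 had an OLG peak, 15.3% (7.88 to 25.7) beside 4.07%. A peak in 1 list alone was the usual case: 16 of the 22 guidance genes (72.7%), beside 87.6% of the 3705 protein-coding genes with a peak in either list (62.2% in OPC alone and 25.5% in OLG alone). The intervals cover counting error over genes only, and genes of 1 family share their origin, so they are not independent. No test was run on the list, which was proposed with results of these data known.

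**Figure D1:**
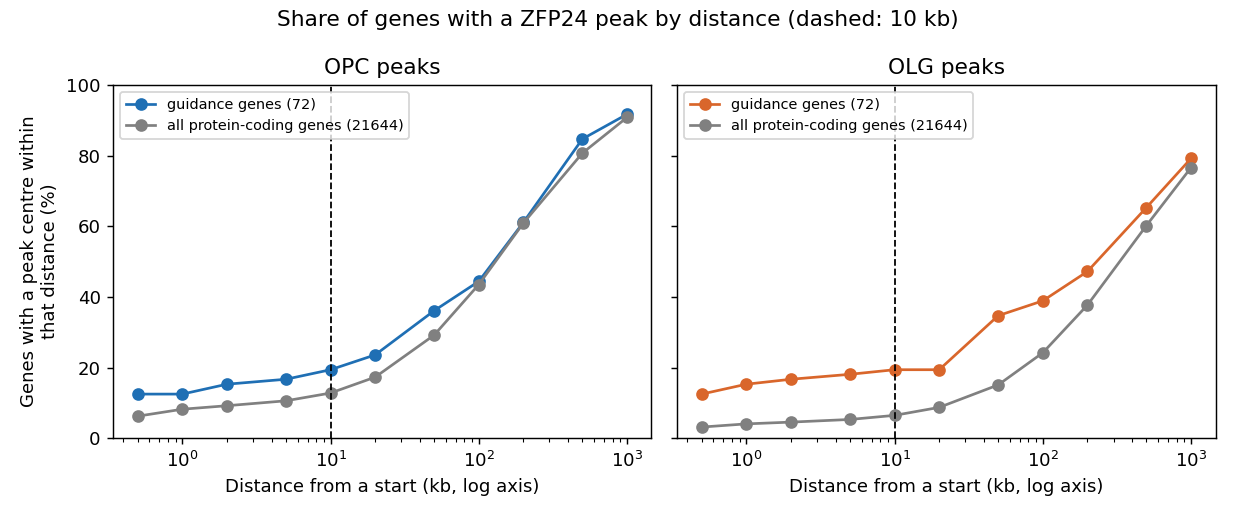
Share of genes (vertical axis, percent) whose nearest peak centre lies within the distance on the horizontal axis (kb, log axis), for the 72 guidance genes (coloured) and all 21644 protein-coding genes (grey), in OPC (left) and OLG (right). The OPC curves lie at 44.4% and 43.5% at 100 kb, while the OLG curves lie at 38.9% and 24.2% there.

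The distance to the nearest peak showed the same contrast between the lists. In OPC the median distance over the guidance genes was 132 kb, beside 129 kb over all genes. In OLG it was 209 kb, beside 335 kb. At 50 kb the counts were 26 guidance genes in OPC, 36.1% beside 29.2% of all genes, and 25 in OLG, 34.7% beside 15.1%. The OPC share thus came close to that of all genes by 100 kb, and the OLG share did so by 1000 kb, where it was 79.2% beside 76.6%. Among the ligands, OPC peaks were found at 8 of 37 (21.6%, beside 12.8% of all genes) and OLG peaks at 4 (10.8%, beside 6.48%). Among the receptors, they were found at 6 of 35 in OPC (17.1%) and 10 in OLG (28.6%). A peak in either list was found for 9 ligand genes (24.3%) and 13 receptor genes (37.1%), beside 17.1% of all genes. Whether ligands and receptors differ was not tested.

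**Figure D2:**
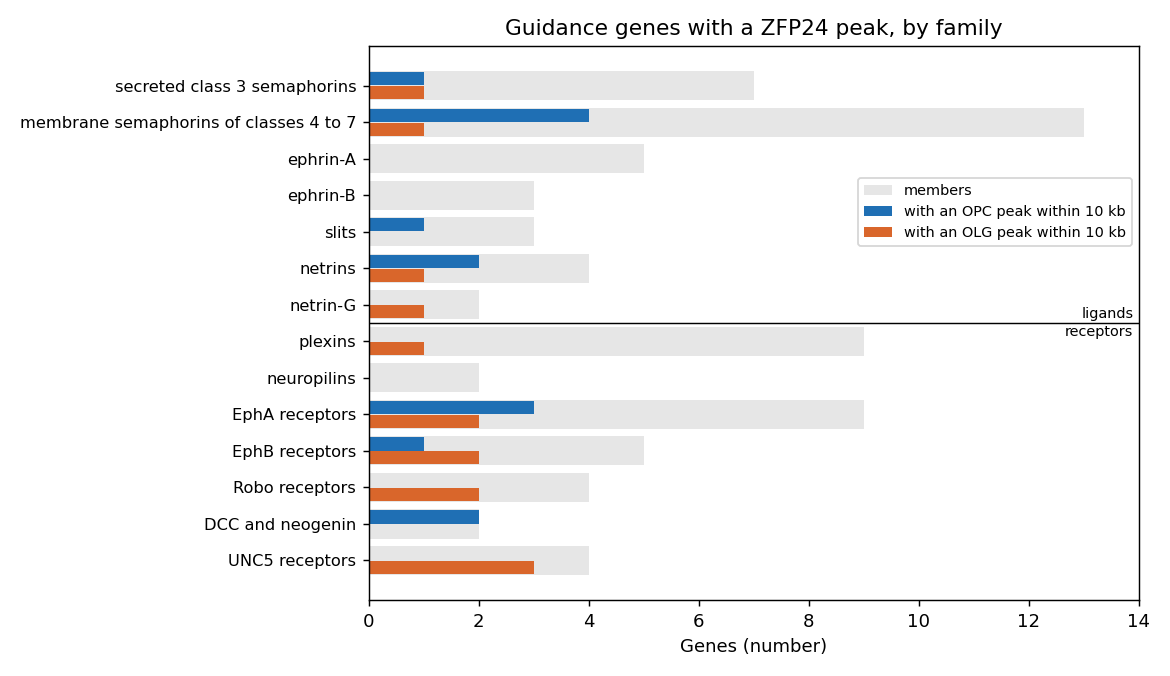
Number of guidance genes in each family (grey bars), and of those with an OPC peak (blue) or OLG peak (orange) within 10 kb of a start. OPC bars stand at 2 of 2 genes for DCC and neogenin and OLG bars at 3 of 4 for the UNC5 receptors. Over all protein-coding genes 12.8% have an OPC peak, 6.48% an OLG peak and 2.12% both, so an empty bar in a small family is common.

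Among the semaphorins, the largest ligand family, 5 of 20 genes had a peak in either list, beside 17.1% of all genes. Sema3d, which encodes a secreted class 3 semaphorin, was the only gene of its class of 7 with a peak within 10 kb. Its OPC peak centre lay 44 bp upstream of a start and its OLG peak centre 54 bp upstream, and the intervals overlapped by 205 bp. These were the closest peaks of any ligand gene in either list. The nearest OLG peak of Sema3a and of Sema3e, which lie on the same chromosome, was this same peak, more than 1000 kb away from both.

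The membrane semaphorins of classes 4 to 7 gave 4 of 13 genes with an OPC peak, beside 12.8% of all genes. An OLG peak was found at 1 of 13, beside 6.48%. Sema7a, which encodes a lipid-anchored semaphorin, had an OPC peak centred 119 bp downstream of its start in a coding exon, a second OPC peak 5793 bp upstream, and an OLG peak 419 bp downstream in an intron. The OPC peak and the OLG peak by the start lay 300 bp apart and did not overlap. Sema4b, which encodes a transmembrane semaphorin, had an OPC peak 314 bp downstream of a start, and its nearest OLG peak lay 203578 bp away. Sema6d and Sema6a encode transmembrane ligands of A-type plexins. Sema6d had an OPC peak 221 bp upstream of a start that lies inside the gene, 563445 bp from the 5′ end of the gene record, and its nearest OLG peak was 1791023 bp away. At Sema6a the OPC peak lay in an intron 7051 bp downstream of a start, the farthest OPC peak that was counted, and the nearest OLG peak lay 799992 bp away. Of these 4 genes, 1 had a peak in both lists, beside 12.4% of all genes with a peak in either list.

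The ephrin genes had no peak within 10 kb in either list, 0 of 5 for the lipid-anchored ephrin-A genes and 0 of 3 for the transmembrane ephrin-B genes. The nearest was an OPC peak 10860 bp downstream of the start of Efna2, just outside the limit. Efna1, Efna3 and Efna4 lie next to each other and shared their nearest peak in each list, so that these 3 genes are not separate observations. The ephrin genes had a median length of 9.97 kb beside 57.5 kb over the guidance genes. Efna5 (277134 bp) and Efnb2 (43809 bp) were longer than the median protein-coding gene (17.4 kb). A peak in either list was found at 13.6% of all genes shorter than that median and 20.6% of the longer ones. With 8 genes a count of 0 is near these shares, and the part of length was not tested.

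Among the slits, Slit1 had an OPC peak in an intron 5036 bp downstream of a start, and its nearest OLG peak lay 79342 bp downstream, also inside the gene. Slit2 and Slit3 had no peak within 10 kb. Netrin genes had an OPC peak at 2 of 4, beside 12.8% of all genes, and an OLG peak at 1 of 4, beside 6.48%. Ntn1, which encodes netrin-1, a secreted cue that attracts through DCC and repels through UNC5, had OPC peaks 180 bp and 1356 bp downstream of 2 of its starts and an OLG peak 488 bp downstream of a start. The first OPC peak and the OLG peak of Ntn1 lay 308 bp apart without overlap. Both were at an internal start, 14177 and 14485 bp from the 5′ end of the gene record. Ntn4, which encodes another secreted netrin, had an OPC peak in the 5′ untranslated region 399 bp downstream of its start, with the nearest OLG peak 211374 bp away. Ntng1 encodes netrin-G1, a lipid-anchored relative that binds a leucine-rich repeat ligand rather than DCC. It had 2 OLG peaks, 151 bp downstream in a coding exon and 219 bp upstream in a 5′ untranslated region, and its nearest OPC peak was 608251 bp away.

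**Figure D3:**
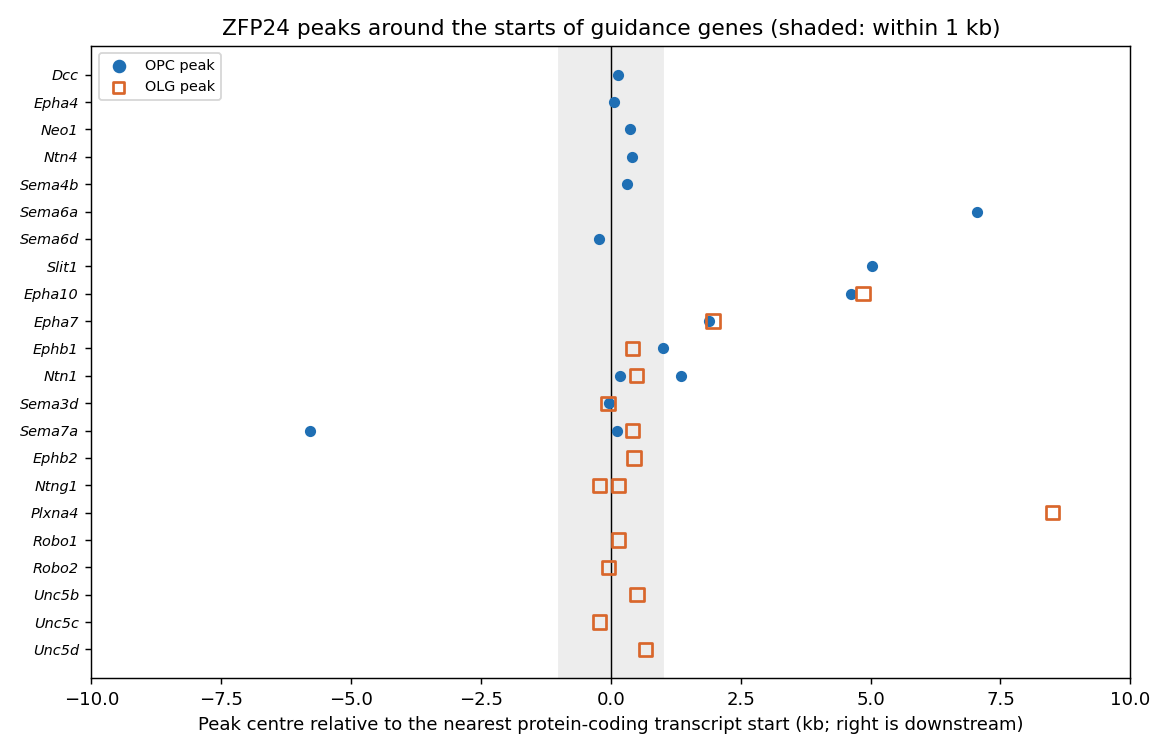
Position of the 31 peaks within 10 kb of a guidance gene start (horizontal axis, kb from the nearest start, positive is downstream), 1 line per gene, OPC as filled circles and OLG as open squares. Genes with OPC peaks alone are at the top, genes with both in the middle and genes with OLG peaks alone at the bottom, and 21 of the 31 peaks lie in the shaded 1 kb on each side of a start.

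On the receptor side, the netrin and slit receptors had a peak at 7 of 10 genes in either list, beside 17.1% of all genes. In both lists it was 0 of 10, beside 2.12%, so the 0 is near the background. These receptor genes had a median length of 266 kb, beside 17.4 kb over all genes. In the longest of 4 equal groups of genes by length, 24.1% of all genes had a peak in either list. The part of length in this count was not tested. DCC, the receptor through which netrin-1 attracts, had an OPC peak in the 5′ untranslated region 132 bp downstream of a start of Dcc, and the nearest OLG peak lay 776558 bp away. Neogenin (Neo1), a receptor of netrins and of repulsive guidance molecules, had an OPC peak in a coding exon 360 bp downstream of a start, with the nearest OLG peak at 449458 bp. An OPC peak alone was found at 62.2% of all genes with a peak in either list.

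The UNC5 receptors, through which netrin-1 repels, had an OLG peak at 3 of 4 genes, beside 6.48% of all genes, and an OPC peak at 0 of 4, beside 12.8%. With 4 genes, an OPC count of 0 is near that share. Unc5c had an OLG peak 218 bp upstream of a start, and its nearest OPC peak lay 756232 bp away. This peak also lies on an exon of Gm15688, a non-coding gene. Unc5b had an OLG peak in an intron 504 bp downstream of a start, with the nearest OPC peak 47057 bp away. Unc5d had an OLG peak in an intron 670 bp downstream of a start, and its nearest OPC peak lay 302377 bp away. The remaining gene, Unc5a, had its nearest peaks 261384 bp away in OPC and 586950 bp away in OLG. Among the Robo receptors of slits, Robo1 had an OLG peak in the 5′ untranslated region 146 bp downstream of a start that lies 354989 bp inside the gene record, with the nearest OPC peak at 212469 bp. Robo2 had an OLG peak 46 bp upstream of a start, inside an intron of a longer transcript, and the nearest OPC peak was 1515578 bp away. Robo3 and Robo4 had no peak within 10 kb. With 1 library per cell type, these differences between the lists have no replicate check.

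The Eph receptor kinases had an OPC peak at 4 of 14 genes, beside 12.8% of all genes. An OLG peak was found at 4 of 14, beside 6.48%, and 3 genes were common to the lists, beside 2.12%. Epha7 had an OPC peak 1892 bp and an OLG peak 1966 bp downstream of a start, overlapping by 141 bp. Epha10, which encodes an Eph receptor without kinase activity, had an OPC peak at 4623 bp in an intron and an OLG peak at 4852 bp in a coding exon, with centres 229 bp apart. Ephb1 had an OPC peak 1011 bp downstream of its start in an intron and an OLG peak 410 bp downstream in a coding exon, with centres 601 bp apart. Epha4, a receptor that binds ephrins of both classes, had an OPC peak in a coding exon 63 bp downstream of its start, and its nearest OLG peak was 2267376 bp away. Ephb2 had an OLG peak in an intron 443 bp downstream of a start, and its nearest OPC peak, 18795 bp downstream, also lay inside the gene. In either list the Eph receptors had peaks at 5 of 14 genes (35.7%), beside 17.1% of all genes. The Eph receptor genes had a median length of 92.4 kb, and the part of length in this count was not tested.

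The receptors of the semaphorins are 9 plexins and 2 neuropilins, and their counts were near those of all genes. An OPC peak was found at 0 of 11, beside 12.8% of all genes, and an OLG peak at 1 of 11 (9.09%), beside 6.48%. The gene was Plxna4, with a peak in an intron 8500 bp downstream of its start, the farthest OLG peak counted. Its nearest OPC peak, 412974 bp downstream, lay inside the same gene. Outside the limit came Efna2 in OPC, at 10860 bp, and Epha2 in OLG, at 20164 bp, so that no guidance gene lay between 8500 and 20164 bp of an OLG peak.

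**Figure D4:**
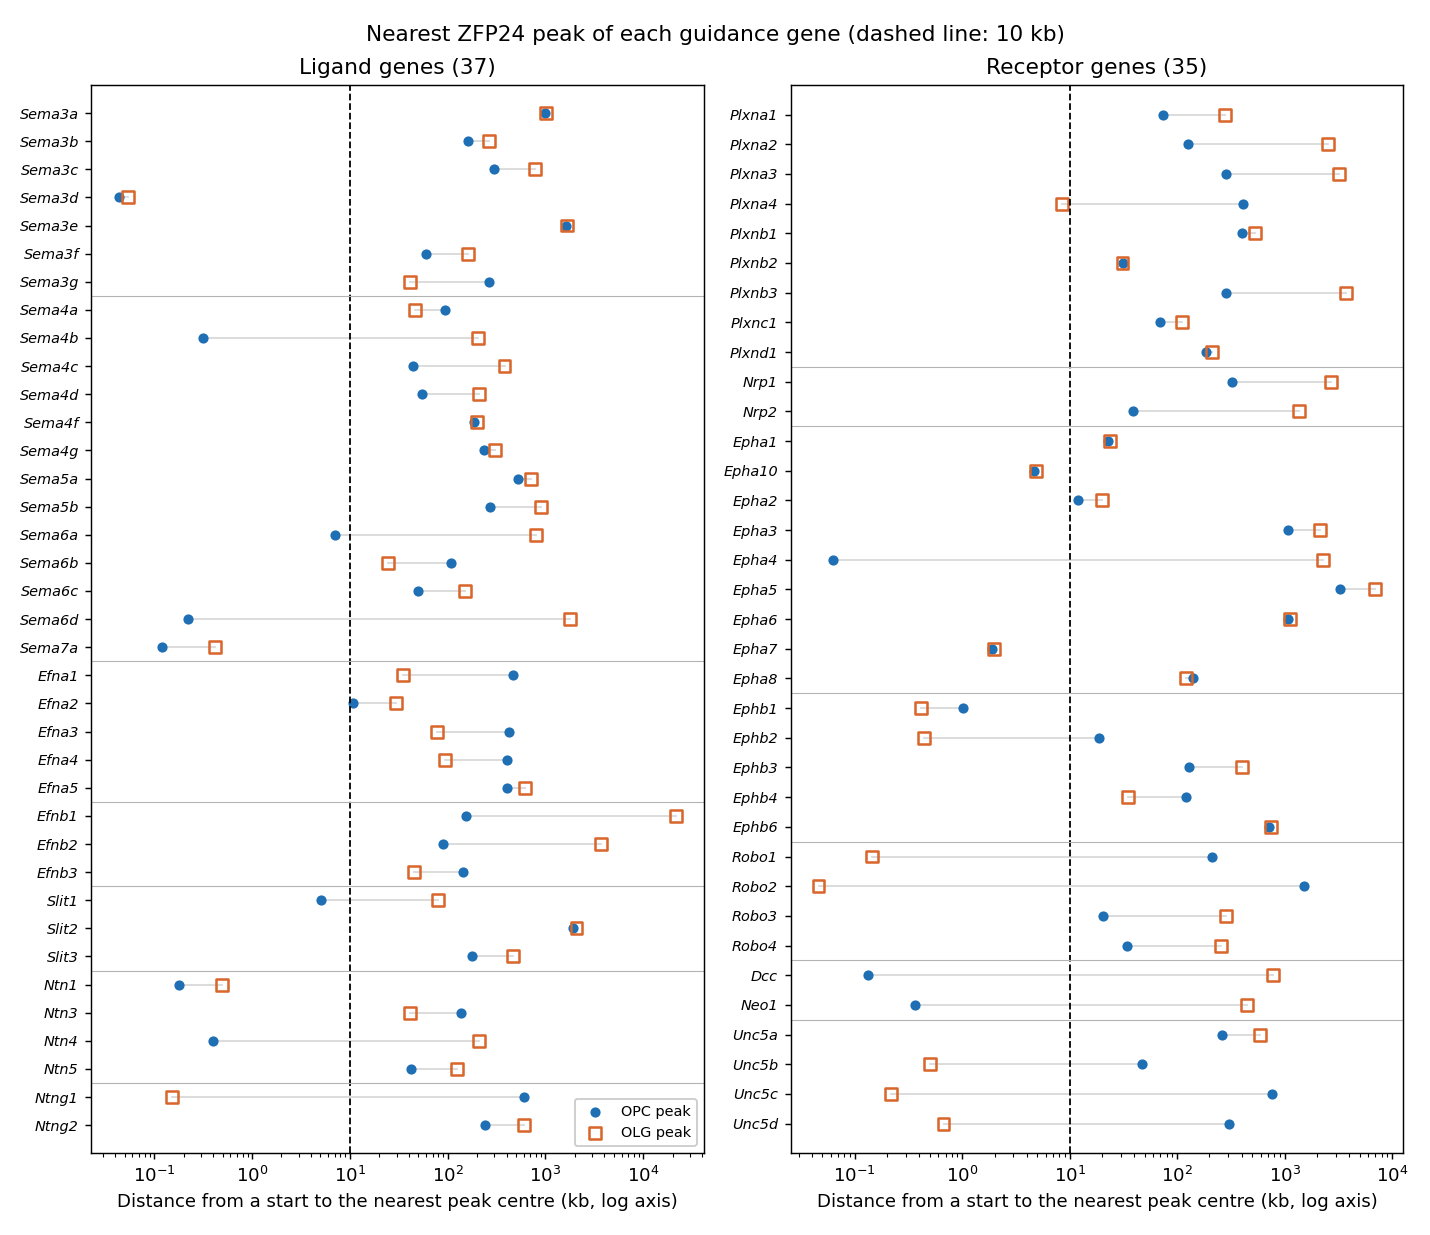
Distance from a start to the nearest OPC peak centre (filled circles) and OLG peak centre (open squares) for each of the 37 ligand genes (left) and 35 receptor genes (right), in kb on a log axis. Grey lines separate families, and the dashed line is at 10 kb. Symbols to the left of the line belong to the 22 genes with a peak within 10 kb.

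Of the guidance genes with no peak within 10 kb, Efna2, Epha2, Robo3 and Epha1 had the nearest OPC peaks, at 10860, 12060, 20494 and 22839 bp. In OLG they were Epha2, Epha1, Sema6b and Efna2, at 20164, 23623, 24498 and 29712 bp. Both peaks of Epha1 were nearer to Zyx, an actin-associated gene, whose starts lay 390 bp from the OPC peak and 183 bp from the OLG peak. The OLG peaks of Sema6b and Efna2 were likewise nearer to a start of Plin4 and of Midn. Epha2 and, in OPC, Efna2 and Robo3 were themselves the nearest gene to these peaks.

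There were 31 peaks within 10 kb, 16 in OPC and 15 in OLG. Within 1 kb of a start were 9 of 16 in OPC (56.2%), beside 69.6% of all OPC peaks within 10 kb of a start, and 12 of 15 in OLG (80%), beside 71.1%. Of the 31, 24 lay downstream of the start and 7 upstream. By place, 15 lay in introns, 7 in coding exons, 7 in 5′ untranslated regions and 2 outside the gene. The guidance gene was the nearest protein-coding gene for 31 of 31. Direction, place and nearest gene are not given here for all peaks near starts, so these counts have no background beside them. For 5 peaks, at Sema6d, Sema4b, Ntn1 and Robo1, the start was an internal one and the peak lay more than 10 kb from the 5′ end of the gene record. At the 6 genes with a peak in both lists, the closest OPC and OLG peaks overlapped at 2 (Sema3d and Epha7) and had centres no more than 601 bp apart at all 6, with a median of 264 bp. Over the 458 protein-coding genes with a peak in both lists, 50% had overlapping peaks, 75.5% had centres within 1 kb, and the median was 214 bp.

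Peaks inside the gene were counted next, at any distance from a start. In OPC 21 of 72 guidance genes held a peak, 29.2% (19 to 41.1), beside 12% of all genes, and in OLG 16 of 72, 22.2% (13.3 to 33.6), beside 5.75%. Guidance genes are long, with a median of 57.5 kb beside 17.4 kb over all genes, and a longer gene can hold more peaks. Per length of gene, they held 2.82 OPC peaks per Mb (35 peaks, exact Poisson 95% interval 1.96 to 3.92), beside 2.93 per Mb over all genes. In OLG they held 1.53 per Mb (19 peaks, 0.921 to 2.39), beside 1.24. Both backgrounds lay inside these intervals, so a difference in peaks per Mb was not detectable with these counts. Sema6d and Ntn1 held the most OPC peaks, 4 each, followed by Epha7 and Robo1 with 3.

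Gene length also moved with the counts at starts. The 22 guidance genes with a peak within 10 kb of a start in either list had a median length of 190 kb, and the 50 without one 27.6 kb. The 8 genes with OLG peaks alone had a median of 407 kb, the 8 with OPC peaks alone 146 kb and the 6 with both 173 kb. Of the 19 guidance genes shorter than the median protein-coding gene, 0 had a peak, where 13.6% of all genes of that size had one. Of the 38 guidance genes in the longest of 4 equal groups of genes by length, 11 had an OPC peak (28.9%, beside 18.2% of all genes in that group) and 12 an OLG peak (31.6%, beside 9.31%). Receptor genes were longer than ligand genes, with medians of 115 and 39.7 kb. Base composition at the start differed as well, with a median GC content of 66.4% over 250 bases on each side of the start of a guidance gene and 57.1% over all genes. In a comparison added after the counts were seen, the shares of all genes were weighted to the guidance genes' own mix of length and GC groups. This gave 18% in OPC, or 12.9 of 72 genes beside the 14 counted, and 9.43% in OLG, or 6.79 genes beside 14. The part of length or GC content in the counts was not tested further.

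**Figure D5:**
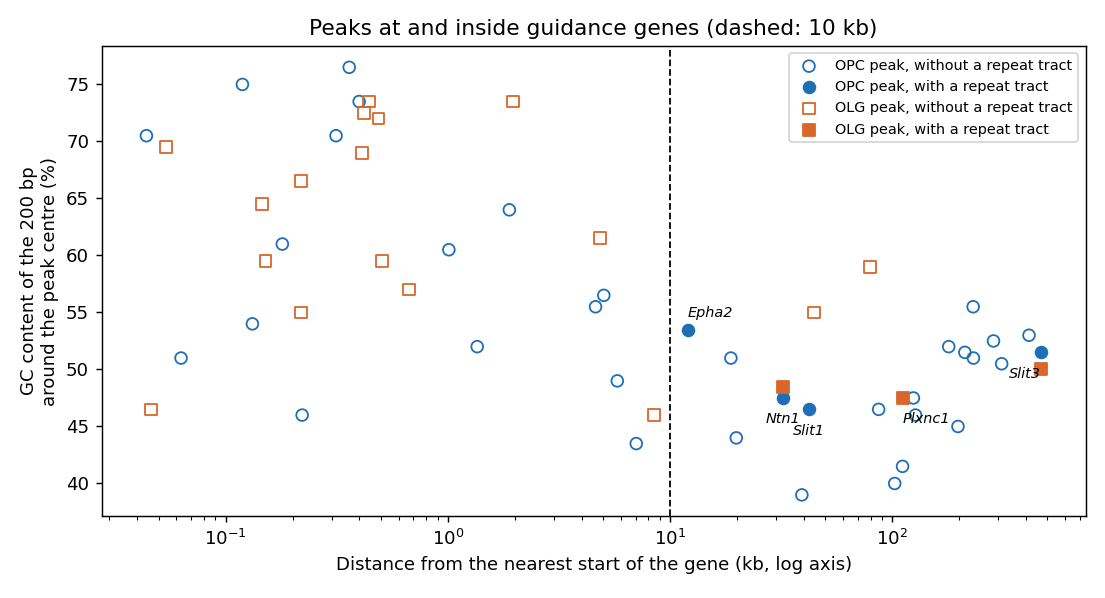
GC content of the 200 bp around each peak centre (vertical axis, percent) against distance from the nearest start of the gene (horizontal axis, kb, log axis), for peaks within 10 kb of a guidance gene start and for peaks inside guidance genes beyond 10 kb. Filled symbols hold a repeat tract, and the filled OPC symbols and the filled OLG symbol of Plxnc1 carry the gene's name. All filled symbols lie to the right of the dashed line at 10 kb.

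The sequence of the peaks changed with distance from the start. A tract meant TCAT units repeated in tandem over 12 bases or more, read on both strands and from any base of the unit, in the 200 bp around the peak centre. None of the 16 OPC and 15 OLG peaks within 10 kb of a guidance gene start held a tract, where 6.6% of all OPC peaks and 4.07% of all OLG peaks within 10 kb of any start did. With so few peaks, a share of that size could not be told apart from 0. Inside guidance genes but beyond 10 kb from a start lay 25 further peaks, 20 in OPC and 5 in OLG, all of them in introns. Tracts were found in 4 of these 20 OPC peaks (20%, beside 17.5% of all OPC peaks beyond 1 kb of a start) and 3 of these 5 OLG peaks (60%, beside 8.42%).

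The longest tract under a peak was at Slit1, 43 bases, in an OPC peak 42419 bp downstream of a start. At Ntn1 the OPC and OLG peaks 32193 and 32149 bp downstream of a start overlapped by 171 bp over a tract of 31 bases. In Slit3, another slit gene, peaks of the 2 lists 466535 (OPC) and 466561 bp (OLG) downstream of the start overlapped by 189 bp at a tract of 32 bases. These 2 pairs, each over a tract, were the only overlapping pairs deep inside guidance genes. How often such pairs hold a tract over all genes is not given here. Plxnc1, a plexin that binds Sema7a, had an OLG peak 111866 bp downstream of its start on a tract of 29 bases, and no OPC peak in the gene. At Epha2 an OPC peak 12060 bp downstream of the start held a 13-base tract, and the OLG peak 20164 bp upstream held short tracts of up to 15 bases.

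Most tracts at guidance genes had no peak. In these genes and the 10 kb around them, 110 tracts lay in 37 genes. Of these, 5 had an OPC peak centre no more than 100 bp away (4.55%, beside 4.42% of the 16888 tracts of the genome) and 3 an OLG peak centre that close (2.73%, beside 0.799%). Among the 20 tracts of at least 24 bases, 3 had an OPC peak (15%, beside 12.4% of the genome's) and 3 an OLG peak (15%, beside 1.91%). The longest of all, 55 bases at Epha2, had none in either list.

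Close to the start the peaks were rich in GC. Those within 1 kb of a guidance gene start had a median GC content of 70.5% in OPC and 65.5% in OLG, beside 64% and 68.5% for all peaks that close to a start. The 20 OPC peaks deep inside guidance genes had a median of 49%. The GC box, GGGCGG searched on both strands in the 200 bp around the peak centre, was found in 1 of 9 OPC peaks within 1 kb of a guidance gene start (11.1%, beside 31.2% of all OPC peaks that close to a start) and in 3 of 12 OLG peaks (25%, beside 40.8%). In the RefSeq promoters of these genes (GRCm38.p6, 250 bases before to 50 after a start), which matched 62 of the 72 symbols with 78 promoters, 55 held a GC box (70.5%, beside 35.9% of all 32544 promoters). Their median GC content was 64.2%, beside 53%. The ETS core CCGGAA, on either strand, was in 0 of the 31 peaks, beside 10.4% of OPC and 11.1% of OLG peaks within 10 kb of any start. These matches describe the letters in these windows and no more.

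Other genes of the guidance pathway, 70 genes listed from general knowledge, had an OPC peak within 10 kb at 15 (21.4%, beside 12.8% of all genes) and an OLG peak at 6 (8.57%, beside 6.48%). A peak in both lists was found at 2, Rock1 and Chn2 (2.86%, beside 2.12% of all genes), which is near the background. Among 19 other cues and co-receptors, OPC peaks were found at 6 (31.6%) and OLG peaks at 0, which with so few genes is near the 6.48% of all genes. They included Islr2, a neuronal co-receptor, with an OPC peak 155 bp from a start, Rgmb at 297 bp, which encodes a ligand of neogenin, and Lrrc4 at 684 bp, which encodes a netrin-G ligand. Among 51 intracellular effectors, OPC peaks were found at 9 (17.6%) and OLG peaks at 6 (11.8%), beside the same 12.8% and 6.48%. Rock1, a kinase downstream of RhoA, had an OPC peak at 285 bp and an OLG peak at 363 bp. The actin-severing factor Cfl1, the exchange factor Vav3, Dpysl3, which encodes a collapsin response mediator, and Trim9, a ubiquitin ligase that binds DCC, had OPC peaks at 414, 537, 628 and 847 bp. In OLG, Mical1, an oxidase that acts on actin downstream of plexins, had a peak at 22 bp, Chn2, a Rac inactivator, at 48 bp, and Fyn, a kinase known in oligodendrocytes to act downstream of netrin-1, at 494 bp. Trio, an exchange factor downstream of DCC, and Dpysl4 had OLG peaks at 841 and 896 bp.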

How the data were processed

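ZFP24 ChIP-seq used an antibody against ZNF24 and 75 nt single-end reads, per the labels' protocols. The deposited files are 2 peak lists with chromosome, start, end and name, and no score. The build was mm10 and the tools were HOMER 4.8.3 and BWA, whose version is not given, per the submitters' processing notes. How peaks were called, at which threshold and with which controls was not given in the sources used here. Each list was taken as the list of wild-type cells of its cell type, though the labels of the null sample name it too. All OPC peaks are 209 bp wide and all OLG peaks 221 bp, and 0 peaks ran past a chromosome end of GRCm38.

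Distances run from a peak centre to the nearest protein-coding transcript start of GENCODE M21 basic, and positions are 1-based. UNC5 genes were counted as members, though they carry no digit after the letter. Python 3.11.15, numpy 2.4.6, scipy 1.17.1, pandas 2.3.3 and pysam 0.24.0 were used. The counting was tested on simulated data, where 20 of 20 planted genes were found. The members and gene lists were chosen with earlier results of these data known, so no test was run and shares stand beside those of all genes. Named genes are all members with a peak within 10 kb, the 4 nearest others per list, and, of the other pathway genes with a peak within 10 kb, the 8 nearest per list (6 in OLG, where no more had one). Other members, such as those with a tract at an intronic peak or a shared nearest peak, were named after their values were seen. Alternatives were other distances, start definitions, peak subsets, overlap rules and tract lengths.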

Additional observations from a re-analysis of the deposited data

How the results depend on the processing

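Of 41 other settings, 27 left the count within 1.5 times. Not all of these could have moved it. A search for tracts of at least 16 bases cannot exceed the 0 found at 12 bases. Leaving out the UNC5 genes cannot change the OPC count, as none of them had an OPC peak within 10 kb. With a limit of 50 kb in place of 10 kb, 26 genes had an OPC peak, 25 an OLG peak and 39 either (19 ligand and 20 receptor genes), beside 29.2%, 15.1% and 36.6% of all genes, and 38 other pathway genes had a peak in either list. With the peaks of the lower numbers in their names, a stand-in for a stricter threshold whose meaning is not stated, 6 genes had an OPC peak, 8 an OLG peak and 11 either (4 ligand and 7 receptor genes), beside 7.71%, 3.74% and 10.3% of all genes. With the same peaks, 17 guidance genes held a peak of either list inside the gene, at any distance from a start, in place of 26. The share of all genes for this count in either list is not given here. Counting centres within 1 kb as shared gave 6 genes in place of 2. A tract search over 1000 bp found 1 peak in place of 0, the upstream OPC peak of Sema7a. Without the UNC5 genes, 11 genes had an OLG peak and 10 receptor genes a peak in either list, beside 6.48% and 17.1% of all genes. A limit of 2 kb gave 11 genes in OPC, 12 in OLG and 18 in either, beside 9.21%, 4.57% and 12.4% of all genes. The settings differ in which peaks, genes, bases or pairs are counted, and the reasons for the changes were not tested. No paired analysis was possible because each group has 1 library and no test was run. With no read counts and no replicates, neither depth nor the spread between libraries could be measured, and a gene without a peak may still be bound below the calling threshold.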
